A study of Mus musculus with 16 samples.

Results

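RNA sequencing compared Cd11b-high cells of a doxycycline-treated leukaemia culture with the untreated leukaemia. Cd11b-high viable cells, sorted after 12 days of doxycycline at 0.1 µg/mL, gave 2 libraries, replicates A and B. Untreated cells of the same line, collected at day 0, gave the other 2, so the comparison rests on 4 of the 16 libraries of a 24-day series and is described across all 13652 listed genes. Both groups were of the AML246 line, which was derived from acute myeloid leukaemia of the mouse, and were kept in IMDM with 10% foetal calf serum and interleukin-3. Both had been passed through a cell sorter: the gate took Cd11b-high viable cells at day 12 and total viable cells at day 0. The series title ties doxycycline in this line to restoration of PU.1, and its absence to PU.1 knockdown; the genotype of the line and the form of the knockdown are not given in the sources used here. Total viable cells of day 12, 2 further libraries under the same doxycycline, served to show what the Cd11b gate itself added. AML246 is 1 leukaemia line, and the labels do not say whether A and B were separate cultures. Every p-value rests on a spread between replicates that was estimated over all 16 libraries and may be technical.

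PU.1, encoded by Spi1, is an ETS-family transcription factor that is needed for the development of granulocytes and macrophages, and low PU.1 activity is a known route to myeloid leukaemia in mice. Cd11b is the alpha chain of the integrin Mac-1, which pairs with the beta-2 chain and appears on the surface of granulocytes and monocytes as they mature. Maturing granulocytes fill their granules in order: primary (azurophil) granule proteins come first, secondary granule proteins later, and the oxidase and surface receptors of the finished cell accompany the late steps.

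The Cd11b-high libraries held 23445353 (A) and 21129129 (B) counts, and the day 0 libraries held 18011837 (A) and 12962801 (B). Levels are CPM, read counts scaled to a common library size with TMM factors, and a gene is called higher or lower at a Benjamini-Hochberg adjusted p under 0.05 in the quasi-likelihood F test of edgeR over all 16 libraries. A log2 fold is Cd11b-high over day 0, with its standard error (SE) from the same fit. Levels of different genes are compared only as RPKM, that is, per kilobase of gene length. Each pair of replicates differed by more than sampling noise, with a chi-square per degree of freedom of 6.27 in the Cd11b-high pair and 12.3 in the day 0 pair.

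The markers given with the gate were far above day 0 in Cd11b-high cells. Total cells of day 12 held them too, at 719 and 669.5 CPM for Itgam and 177 and 170 CPM for Lcn2. The values against day 0 therefore do not show what the gate itself added. Itgam (chr7:128062640-128118491, GRCm38), the gene of Cd11b, stood at 884 and 940.4 CPM in Cd11b-high cells, against 1.41 and 1.77 CPM at day 0, and it is given without a test because its protein chose the cells. Lcn2 (chr2:32384637-32387739), which encodes the secondary granule protein lipocalin-2, stood at 219 and 237 CPM in Cd11b-high cells, against 2.55 and 3.02 CPM at day 0. Both Cd11b-high libraries lay far above both day 0 libraries, and Lcn2 was 82.2-fold higher, a log2 fold of 6.36 with an SE of 0.20 and an adjusted p of 7.36e-12 in edgeR. Spi1 (chr2:91082374-91115759) stood at 229 and 244 CPM in Cd11b-high cells, against 66.3 and 56.8 CPM at day 0. The groups did not overlap, and Spi1 was 3.84-fold higher, with a log2 fold of 1.94, an SE of 0.15 and an adjusted p of 5.86e-08 in edgeR. In bulk libraries such as these, a change in the share of cells that use a gene and a change in RNA per cell cannot be told apart.

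Of the 13652 genes, 8907 were called between Cd11b-high cells and day 0 (65.2%), 4199 of them higher (30.8%) and 4708 lower (34.5%). The libraries of the groups did not overlap at 11669 genes (85.5%). A called change with a fitted fold over 2 was found at 4039 genes (29.6%), 1831 higher (13.4%) and 2208 lower (16.2%). Over 8-fold, 242 genes were higher and 205 lower, and over 32-fold, 82 were higher and 58 lower. The median log2 fold of all genes was -0.08, with quartiles at -0.72 and 0.58. Against a minimum fold of 2 tested in the model itself, 1035 genes were higher and 1019 lower. Called genes were thus the majority, and the count of each list below stands against these shares.

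**Figure D1:**
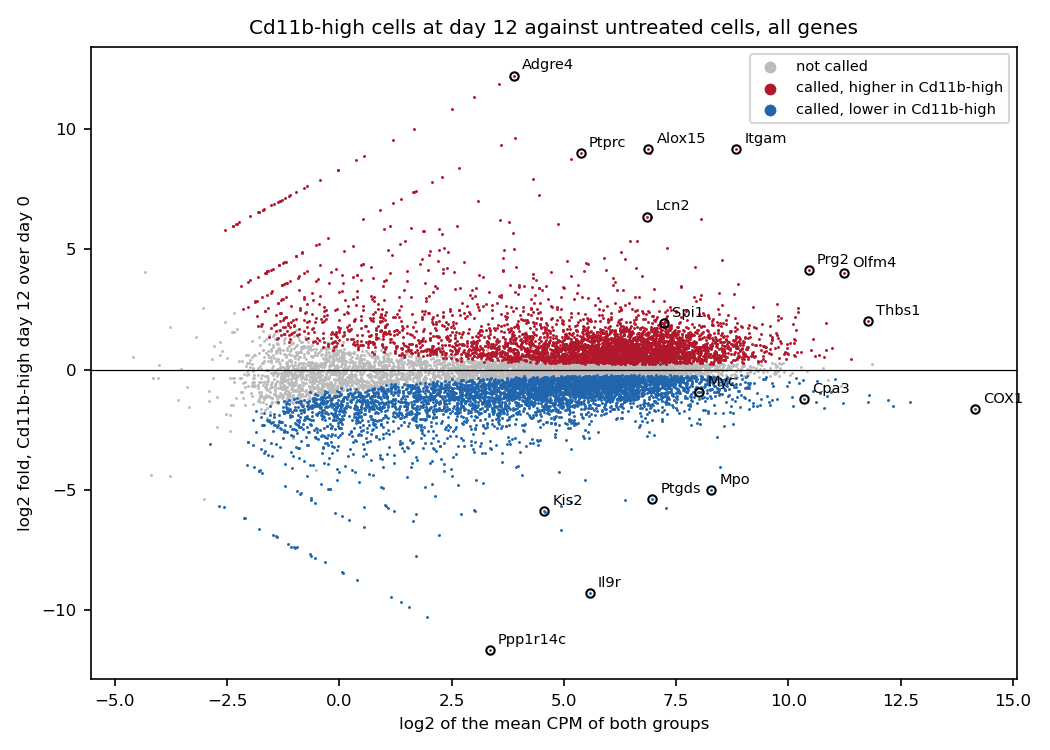
Log2 fold of Cd11b-high cells over day 0 (vertical axis) against the log2 of the mean CPM of both groups (horizontal axis) for each gene, coloured by whether the gene was called. Alox15 and Ptprc sit near Itgam at the top, Il9r and Ppp1r14c at the bottom, and the diagonal lines of points at the left are genes with very few reads in 1 group, whose fitted folds are not bounds.

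Genes of at least 10 CPM in Cd11b-high cells and under 1 CPM at day 0 numbered 26, and 15 genes had the opposite pattern, all of them called. The 12 largest rises and 12 largest falls by fitted fold were taken from called genes of at least 10 CPM in the higher group. Libraries that did not overlap between groups were required too. Predicted and RIKEN genes were not taken. That left out 9830107B12Rik and A530064D06Rik, at means of 23.5 and 15.9 CPM in Cd11b-high cells and 0 CPM at day 0, whose fitted folds lay between those of Adgre4 and Cd300ld, and Gm15915 among the falls (log2 fold -5.44). Adgre4, an adhesion receptor related to the macrophage antigen F4/80, had 29.1 and 30.0 CPM in Cd11b-high cells, against 0 and 0 CPM at day 0. With no read at day 0 it was at least 315-fold higher, taking 3 reads in the day 0 pair as the floor. Cd300ld, an immunoglobulin-like receptor, had 11.4 and 11.2 CPM in Cd11b-high cells, against 0 and 0 CPM at day 0. That made it at least 120-fold higher on the same floor. Lsp1, an actin-binding protein of leukocytes, had 27.8 and 31.9 CPM in Cd11b-high cells, against 0.0544 and 0 CPM at day 0. The 1 read at day 0 gave a ratio of 951 with a 95% counting interval of 170 to 37608. Ngp, a neutrophil granule protein, had 20.4 and 27.7 CPM in Cd11b-high cells, against 0 and 0.0738 CPM at day 0. Its single day 0 read gave a ratio of 764 (interval 137 to 30196). Itgb2l, an integrin chain related to the beta-2 partner of Cd11b, had 11.4 and 13.9 CPM in Cd11b-high cells, against 0 and 0.0738 CPM at day 0, a ratio of 402 over 1 day 0 read (interval 71.9 to 15921). In each of these 5 genes both Cd11b-high libraries were alike and day 0 was empty or nearly so.

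The other large rises started at a few reads. Alox15, the 12/15-lipoxygenase, had 233 and 237 CPM in Cd11b-high cells, against 0.652 and 0.0738 CPM at day 0. The day 0 libraries differed from each other, and both were far below the Cd11b-high ones (log2 fold 9.16, SE 0.41). Ptprc, which encodes the leukocyte antigen CD45, had 82.0 and 83.8 CPM in Cd11b-high cells, against 0.163 and 0.148 CPM at day 0. Gapt, a transmembrane adaptor that binds GRB2, had 246 and 234 CPM in Cd11b-high cells, against 0.707 and 0.148 CPM at day 0. Clec5a, a lectin receptor that signals through DAP12, had 71.2 and 70.3 CPM in Cd11b-high cells, against 0.163 and 0.148 CPM at day 0. The log2 folds of these 3 genes were 8.99, 8.99 and 8.77, with SEs of 0.24, 0.34 and 0.23. Cd300lf, an inhibitory relative of Cd300ld, had 35.3 and 43.9 CPM in Cd11b-high cells, against 0.163 and 0.148 CPM at day 0. Cdh17, a cadherin better known from the intestine, had 42.2 and 44.4 CPM in Cd11b-high cells, against 0.381 and 0.148 CPM at day 0. Separation of the libraries at these genes was required when they were chosen, so it is not a result.

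**Figure D2:**
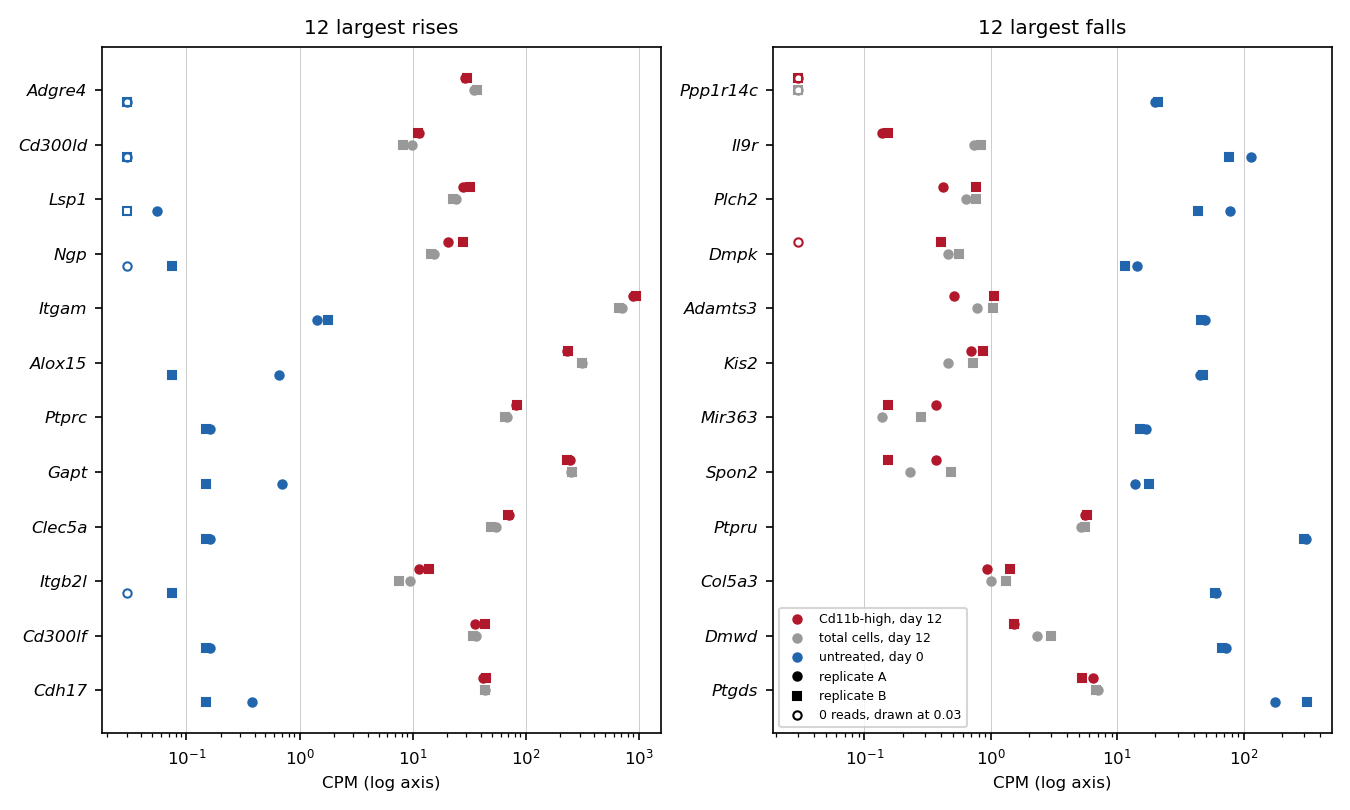
CPM per library on a log axis for the 12 largest rises (left panel) and 12 largest falls (right panel), predicted and RIKEN genes left out, with Cd11b-high cells in red, total cells of day 12 in grey and untreated cells in blue; circles are replicate A, squares replicate B, and open symbols 0 reads. The red and grey symbols lie close together at nearly every gene, far from the blue ones.

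The largest falls were headed by Ppp1r14c and Il9r. Ppp1r14c, an inhibitor of protein phosphatase 1, had 0 and 0 CPM in Cd11b-high cells, against 19.8 and 20.8 CPM at day 0, at least 279-fold lower with 3 reads as the floor. Il9r, the interleukin-9 receptor chain, had 0.139 and 0.152 CPM in Cd11b-high cells, against 114 and 76.9 CPM at day 0 (log2 fold -9.30, SE 0.45). Plch2, a phospholipase C, had 0.416 and 0.761 CPM in Cd11b-high cells, against 77.4 and 43.4 CPM at day 0 (log2 fold -6.69). At all 3 genes both Cd11b-high libraries were below 1 CPM and both day 0 libraries well above 10. Ptpru, a receptor tyrosine phosphatase and one of the more abundant genes of this group, had 5.59 and 5.78 CPM in Cd11b-high cells, against 311 and 299 CPM at day 0 (log2 fold -5.75, SE 0.21). Ptgds, a prostaglandin D synthase, had 6.46 and 5.27 CPM in Cd11b-high cells, against 176 and 314 CPM at day 0 (log2 fold -5.38). The day 0 libraries of Ptgds differed by more than those of Ptpru. Adamts3, a procollagen protease, had 0.508 and 1.07 CPM in Cd11b-high cells, against 48.9 and 46.0 CPM at day 0. Spon2, a secreted matrix protein, had 0.369 and 0.152 CPM in Cd11b-high cells, against 13.8 and 17.7 CPM at day 0. Col5a3, a collagen chain, had 0.923 and 1.42 CPM in Cd11b-high cells, against 60.7 and 59.4 CPM at day 0. These fell by 5.92, 5.85 and 5.68 on the log2 scale. Dmpk (chr7:19083646-19093821), a kinase named for myotonic dystrophy, had 0 and 0.406 CPM in Cd11b-high cells, against 14.3 and 11.4 CPM at day 0. Dmwd (chr7:19076112-19082778), a WD-repeat gene beside it on the chromosome, had 1.52 and 1.52 CPM in Cd11b-high cells, against 72.2 and 67.2 CPM at day 0. Both were low in each Cd11b-high library, and the log2 folds were -6.01 and -5.51. Kis2 and Mir363 complete the 12 and are described with their cluster.

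PU.1 binds purine-rich sites of the kind GAGGAAGT, and promoter windows were searched for these letters and for the shorter GAGGAA, which lies inside them, on both strands. Windows ran from 250 bases before to 50 after each RefSeq start (GRCm38.p6), and 12979 windows of 10257 tested genes were available. GAGGAAGT occurred in 7.41% of the 499 windows of genes called more than 4-fold higher, in 2.51% of the 478 windows of genes called more than 4-fold lower, and in 3.24% of all windows. Over all called genes the shares were 3.93% of windows of higher genes and 2.65% of windows of lower genes. GAGGAA occurred in 37.9% and 26.6% of the windows of the more than 4-fold higher and lower genes, and in 26.8% of all. These shares are a description of letters, not of sites or of binding. The windows of Itgam and of the first 4 of the largest rises that hold GAGGAAGT are shown as examples, chosen for that sequence. Capitals mark GAGGAAGT or GAGGAA on either strand (the reverse strand reads ACTTCCTC or TTCCTC). Each runs 5′ to 3′ along the gene's strand.
Itgam, chr7:128062390-128062689, plus strand: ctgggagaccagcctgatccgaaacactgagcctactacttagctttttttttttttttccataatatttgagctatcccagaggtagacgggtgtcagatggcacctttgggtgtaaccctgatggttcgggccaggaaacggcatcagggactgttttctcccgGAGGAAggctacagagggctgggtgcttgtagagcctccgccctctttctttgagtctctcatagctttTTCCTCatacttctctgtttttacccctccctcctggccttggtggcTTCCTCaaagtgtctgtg
Adgre4, chr17:55749734-55750033, plus strand: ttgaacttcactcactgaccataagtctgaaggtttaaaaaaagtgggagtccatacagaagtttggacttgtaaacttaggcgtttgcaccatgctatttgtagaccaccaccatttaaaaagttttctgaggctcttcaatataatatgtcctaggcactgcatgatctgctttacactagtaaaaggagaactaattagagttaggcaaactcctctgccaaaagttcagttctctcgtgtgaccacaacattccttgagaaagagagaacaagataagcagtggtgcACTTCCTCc
Cd300ld, chr11:114989837-114990136, minus strand: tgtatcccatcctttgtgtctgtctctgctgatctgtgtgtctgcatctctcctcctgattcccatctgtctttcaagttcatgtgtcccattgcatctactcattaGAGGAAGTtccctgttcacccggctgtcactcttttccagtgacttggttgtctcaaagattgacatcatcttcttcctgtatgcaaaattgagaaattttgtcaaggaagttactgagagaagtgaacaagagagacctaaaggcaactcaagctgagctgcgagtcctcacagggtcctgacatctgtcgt
Gapt, chr13:110357123-110357422, minus strand: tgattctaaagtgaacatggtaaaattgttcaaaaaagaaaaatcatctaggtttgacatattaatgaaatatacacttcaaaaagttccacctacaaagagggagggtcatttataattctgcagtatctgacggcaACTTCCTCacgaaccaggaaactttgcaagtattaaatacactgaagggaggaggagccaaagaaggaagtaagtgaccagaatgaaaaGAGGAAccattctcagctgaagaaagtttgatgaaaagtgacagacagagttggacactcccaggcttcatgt
Itgb2l, chr16:96443565-96443864, minus strand: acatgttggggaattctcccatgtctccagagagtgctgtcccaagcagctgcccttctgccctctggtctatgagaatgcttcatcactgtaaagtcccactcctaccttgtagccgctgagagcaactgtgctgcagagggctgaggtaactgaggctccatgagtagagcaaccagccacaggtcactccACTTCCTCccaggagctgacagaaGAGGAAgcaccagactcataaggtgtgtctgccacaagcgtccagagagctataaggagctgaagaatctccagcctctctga
The Itgam window holds the shorter form at 3 places and the longer form at none. The other 4 windows hold the longer form because they were chosen for it. Among the other large rises, the Cd300lf window also holds it, and the windows of Ngp, Ptprc and Clec5a do not. No window was available for Lsp1, Alox15 and Cdh17, so these were not searched.

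Most genes of late neutrophil maturation were higher. The list of azurophil granule genes was divided, with Mpo, Ctsg, Elane and Prtn3 lower. Of 20 measured neutrophil secondary granule and maturation genes, 18 were called higher and 0 lower, with a median log2 fold of 3.33 (3.18 with the gene at 0 reads set at its floor). Olfm4, a secondary granule glycoprotein, had 4439 and 4633 CPM in Cd11b-high cells, against 185 and 376 CPM at day 0. Pglyrp1, a peptidoglycan-binding granule protein, had 421 and 433 CPM in Cd11b-high cells, against 47.9 and 57.3 CPM at day 0. Padi4, the enzyme that citrullinates histones in neutrophils, had 139.9 and 147 CPM in Cd11b-high cells, against 22.4 and 21.8 CPM at day 0. Each was several-fold higher in both Cd11b-high libraries, with log2 folds of 4.02, 3.02 and 2.70. S100a9 and S100a8, the calprotectin chains of neutrophils and monocytes, had log2 folds of 6.27 and 3.40; S100a9 stood at 509.5 and 537 CPM in Cd11b-high cells, against 4.19 and 9.81 CPM at day 0. Anxa1 (log2 fold -0.16) and Wfdc21 (1.56) did not pass the test. The summed level of the list was 6781 and 7068 CPM in Cd11b-high cells, against 657 and 878 CPM at day 0.

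Among 10 azurophil granule genes, 4 were higher and 4 lower, with a median log2 fold of -0.21 that changed sign (0.10) once a trend with gene length, described below, was removed. Mpo, myeloperoxidase, had 21.1 and 16.2 CPM in Cd11b-high cells, against 617 and 586 CPM at day 0. Ctsg, the granule protease cathepsin G, had 37.8 and 30.9 CPM in Cd11b-high cells, against 191 and 256 CPM at day 0. Elane and Prtn3, neutrophil elastase and proteinase 3, had log2 folds of -2.59 and -1.70. Both Cd11b-high libraries lay below both day 0 libraries at these 4 lower members. The largest rises of the list were not of granule contents. Igsf6, an immunoglobulin-superfamily receptor, had 57.1 and 58.1 CPM in Cd11b-high cells, against 0.544 and 1.25 CPM at day 0. Ms4a3, a membrane protein, was also higher. The other higher members, the protease-processing enzyme Ctsc and the serine protease Prss57, rose less (log2 folds 0.60 and 0.67). Ms4a3 had 2 reads at day 0, a ratio of 22.4 (interval 5.93 to 189). Igsf6 lies within the span of Mettl9, which was not called (log2 fold 0.15, edgeR adjusted p = 0.30), and the strand of counting is not given.

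All 7 measured subunits and partners of the phagocyte oxidase, the enzyme complex that makes superoxide, were higher, with a median log2 fold of 1.06. Cybb, the other of the 8 genes in this list, was not measured. Ncf1, its cytosolic organiser p47phox, had 448 and 475 CPM in Cd11b-high cells, against 23.4 and 24.9 CPM at day 0 (log2 fold 4.26, SE 0.11). Hvcn1, the proton channel that balances its charge, had 302 and 302 CPM in Cd11b-high cells, against 63.5 and 51.1 CPM at day 0. Rac2, its GTPase, had 929 and 933 CPM in Cd11b-high cells, against 282 and 268 CPM at day 0. Ncf1 stood out by the size of its change, while Cyba, the membrane subunit p22phox, had the smallest (log2 fold 0.72).

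Receptors that signal through immunoreceptor motifs (ITAMs), and their kinases, were higher nearly throughout. Of 23 measured genes 21 were higher and 1 lower, with a median log2 fold of 1.60. Tyrobp, the DAP12 adaptor on which Clec5a depends, had 196 and 188 CPM in Cd11b-high cells, against 5.60 and 3.76 CPM at day 0 (log2 fold 5.33, SE 0.17). Fcgr1, the high-affinity IgG receptor, had 1 read at day 0 and 345 in Cd11b-high cells, a ratio of 266 (interval 47.5 to 10553). The Src-family kinases Fgr and Lyn, and the kinase Syk, had log2 folds of 1.60, 1.41 and 1.45. The lower member was the adaptor Lat2, also called NTAL, at 4.29 and 4.36 CPM in Cd11b-high cells, against 19.8 and 16.7 CPM at day 0. Fcer1g, the common Fc gamma chain, did not pass the test (log2 fold 0.04).

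Paired receptors of related families behaved less evenly. Of 6 Cd300 genes 5 were higher and 1, Cd300c, lower (log2 fold -2.44). Cd300a, an inhibitory member already present at day 0, had 98.9 and 102 CPM in Cd11b-high cells, against 43.9 and 48.7 CPM at day 0. Of 15 genes with a Clec symbol, lectin-like receptors for the most part, 7 were higher and 4 lower, and their median log2 fold of 0.05 turned to -0.11 with library size as the only scaling. Clec12a, an inhibitory lectin of myeloid cells, had 307 and 303 CPM in Cd11b-high cells, against 6.58 and 12.1 CPM at day 0, whereas Clec7a, the beta-glucan receptor Dectin-1, had 29.5 and 28.5 CPM in Cd11b-high cells, against 120.2 and 112 CPM at day 0. Clec12a was high in both Cd11b-high libraries and Clec7a in both day 0 libraries. All 5 measured Lilr and Pir genes were higher, and Pirb, an inhibitory receptor for MHC class I, had 11.8 and 12.3 CPM in Cd11b-high cells, against 0.326 and 0 CPM at day 0. Siglecf, a sialic acid-binding receptor, had 86.0 and 85.8 CPM in Cd11b-high cells, against 3.70 and 4.43 CPM at day 0. Members of these families are close in sequence and lie in clusters, so reads could be shared between them and single values are uncertain.

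Sensors of microbes were mixed, with 15 of 27 higher and 4 lower and a median log2 fold of 0.72. Nod2, a cytosolic sensor of peptidoglycan, had 246 reads in Cd11b-high cells and 3 at day 0, a ratio of 63.3 (interval 21.4 to 309). Nod1, its relative, had 30.1 and 28.8 CPM in Cd11b-high cells, against 7.99 and 6.86 CPM at day 0. Clec4e, the lectin Mincle, had 37.0 and 35.6 CPM in Cd11b-high cells, against 5.93 and 6.64 CPM at day 0. Tlr9 and Tlr7, endosomal sensors of nucleic acids, had log2 folds of 4.27 and 2.43. Card9, Casp1 and Casp4 were lower, by 0.62, 0.75 and 0.76 on the log2 scale, besides Clec7a. Tlr4, the endotoxin receptor, did not pass the test (log2 fold -0.04).

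Adhesion and chemotaxis genes were higher in 23 of 29 cases and lower in 1, the tetraspanin Cd9 (log2 fold -0.84), with a median log2 fold of 1.54. Itgb2, the beta-2 integrin chain that pairs with Cd11b, had 2033 and 2039 CPM in Cd11b-high cells, against 378 and 316 CPM at day 0 (log2 fold 2.55, SE 0.15). Per kilobase, Itgb2 reached 711 RPKM in Cd11b-high cells, against 121 RPKM at day 0, and its partner Itgam 195 RPKM in Cd11b-high cells, against 0.340 RPKM at day 0. Coro1a, an actin regulator, had 769 and 817 CPM in Cd11b-high cells, against 99.0 and 81.3 CPM at day 0. Ccr1, a chemokine receptor, had 25.2 and 23.9 CPM in Cd11b-high cells, against 0.598 and 1.03 CPM at day 0. Each was well above day 0 in both Cd11b-high libraries. The count of lower members rose to 4 with library size alone and to 3 without day 0 replicate A.

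Complement genes were higher in 8 of 10 cases, with a median log2 fold of 2.25. C3, the central complement component, had 124 and 131 CPM in Cd11b-high cells, against 6.47 and 12.2 CPM at day 0. Cfp, properdin, which stabilises the C3 convertase, had 28.1 and 28.4 CPM in Cd11b-high cells, against 7.88 and 6.79 CPM at day 0. C5ar1, the receptor for the C5a fragment, had 0.554 and 1.47 CPM in Cd11b-high cells, against 0.0544 and 0.221 CPM at day 0. The lower member was Cd55, which protects cells from complement, at 24.9 and 20.6 CPM in Cd11b-high cells, against 78.8 and 42.3 CPM at day 0; 2 members were lower with library size alone or without day 0 replicate A. Of 11 eicosanoid genes 7 were higher and 2 lower: Alox5ap, the partner of 5-lipoxygenase, had 203 and 200.4 CPM in Cd11b-high cells, against 9.73 and 17.7 CPM at day 0, and Alox5 itself had 611 and 634 CPM in Cd11b-high cells, against 259 and 149 CPM at day 0. The lower ones were Ptgds and the phospholipase Pla2g4a (log2 fold -0.43).

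Cytokine receptors and their feedback genes were higher in 19 of 30 cases and lower in 5, with a median log2 fold of 0.64. Il1r2, the decoy receptor for interleukin-1, had 24.2 and 23.3 CPM in Cd11b-high cells, against 1.36 and 1.33 CPM at day 0. Cish, a feedback inhibitor of STAT5 signalling, had 155 and 177 CPM in Cd11b-high cells, against 38.8 and 30.8 CPM at day 0. Csf1r, the receptor for the macrophage growth factor, had 15.3 and 17.4 CPM in Cd11b-high cells, against 1.36 and 0.664 CPM at day 0 (log2 fold 3.95), while Csf3r, the granulocyte one, had 185 and 202 CPM in Cd11b-high cells, against 129.9 and 139 CPM at day 0 (0.53). The chains that serve interleukin-3, with which the cells were grown, were Csf2rb and Csf2rb2, at log2 folds of 1.44 and 2.06, and Il3ra, which did not pass the test (0.18). Lower members besides Il9r were Epor, Il1rl1, Ifngr1 and Il17ra, with log2 folds of -3.62, -1.11, -1.09 and -0.49.

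Transcription factors of blood development showed no common direction. Of 39 measured, 14 were higher and 11 lower, and their median log2 fold of -0.04 was 0.02 with RLE scaling or DESeq2 and 0.21 without Cd11b-high replicate A. The count of lower members was 7 with RLE scaling, 7 without day 0 replicate A and 6 without Cd11b-high replicate A. Stat3, which relays G-CSF and interleukin-6 signals, had 309 and 294 CPM in Cd11b-high cells, against 125 and 114 CPM at day 0. Irf5, an interferon regulatory factor, had 4.16 and 3.40 CPM in Cd11b-high cells, against 0.163 and 0.443 CPM at day 0. Myc, the growth regulator, had 181 and 173 CPM in Cd11b-high cells, against 334 and 343 CPM at day 0. Both day 0 libraries of Myc lay above both Cd11b-high libraries (log2 fold -0.94, SE 0.09). The erythroid and lymphoid-associated factors Klf1 and Spib had log2 folds of -1.78 and -2.21. Cebpa, Cebpb and Cebpe, factors of granulocyte development, did not pass the test, with log2 folds of 0.22, -0.04 and -0.12.

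The 15 measured genes of stem and progenitor cells were likewise divided, 4 higher and 5 lower, with a median log2 fold of -0.08. Of the 24 genes in the list, Meis1, Hoxa7, Hoxa9, Hoxa10, Mycn, Mecom, Sox4, Tal1 and Hlf were not measured. Cd34, a surface antigen of progenitors, had 160.1 and 153 CPM in Cd11b-high cells, against 24.6 and 30.0 CPM at day 0. Kit, the stem cell factor receptor, had 349.7 and 333 CPM in Cd11b-high cells, against 118 and 131 CPM at day 0. Both were thus higher in the Cd11b-high cells than in the untreated leukaemia. Muc13, a membrane mucin, had 3.42 and 3.65 CPM in Cd11b-high cells, against 88.9 and 82.2 CPM at day 0. Myb, a progenitor transcription factor, had 826 and 869 CPM in Cd11b-high cells, against 1167 and 1250.1 CPM at day 0. These 2 were lower in both Cd11b-high libraries.

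Markers of other lineages moved in different directions. Of 12 eosinophil genes 10 were higher and 1 lower, with a median log2 fold of 3.20 that was 4.10 without day 0 replicate A and 2.66 without day 0 replicate B. Prg2, the eosinophil major basic protein, had 2587 and 2702 CPM in Cd11b-high cells, against 195 and 108 CPM at day 0. Ear2, an eosinophil-associated ribonuclease that has close paralogues, had 4.71 and 5.22 CPM in Cd11b-high cells, against 0.761 and 0.148 CPM at day 0. Epx, eosinophil peroxidase, had 3831 and 4189.7 CPM in Cd11b-high cells, against 4930.4 and 1937 CPM at day 0, and did not pass the test. The day 0 libraries differed by more than 2-fold at Epx, and the summed level of this list was 7198 and 7659 CPM in Cd11b-high cells, against 5386 and 2191 CPM at day 0. Of 10 basophil and mast cell genes 1 was higher and 4 lower. Cpa3, the mast cell carboxypeptidase, had 857 and 705 CPM in Cd11b-high cells, against 1978 and 1679 CPM at day 0. The summed level of that list was 1762 and 1598 CPM in Cd11b-high cells, against 3034 and 2449 CPM at day 0.

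Of 15 macrophage and monocyte genes 10 were higher and 4 lower, with a median log2 fold of 0.89. Lyz2, lysozyme, had 458 and 489 CPM in Cd11b-high cells, against 47.5 and 64.7 CPM at day 0. Adgre1, the F4/80 antigen, had 42.3 and 41.1 CPM in Cd11b-high cells, against 4.13 and 4.28 CPM at day 0. Spp1, osteopontin, had 461 and 458 CPM in Cd11b-high cells, against 50.7 and 71.2 CPM at day 0. Apoe, the apolipoprotein, went the other way at 10.5 and 12.9 CPM in Cd11b-high cells, against 87.6 and 79.1 CPM at day 0. Megakaryocyte and platelet genes were higher in 7 of 9 cases, with Thbs1, thrombospondin, at 5549 and 5598 CPM in Cd11b-high cells, against 1045 and 1729 CPM at day 0, and Itgb3, the beta-3 integrin, at 202 and 193 CPM in Cd11b-high cells, against 38.7 and 34.9 CPM at day 0. Gp5, a platelet glycoprotein, was lower (log2 fold -2.46). Erythroid genes were lower in 5 of 6 cases, and the whole list summed to 111 and 119 CPM in Cd11b-high cells, against 220 and 177 CPM at day 0. The 4 B cell genes summed to 3.74 and 3.04 CPM in Cd11b-high cells, against 2.01 and 2.29 CPM at day 0. T and NK cell genes summed to 184 and 183 CPM in Cd11b-high cells, against 92.6 and 83.1 CPM at day 0; most of it was Prf1, perforin, at 139 and 136 CPM in Cd11b-high cells, against 48.2 and 41.0 CPM at day 0. Of 7 dendritic cell genes 4 were higher and 1 lower, and 3 were under 1 CPM in both groups. Whether other cells in the culture or gate carried any of these levels was not tested.

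Most interferon-stimulated and lysosomal genes were higher, and so were 6 of 12 MHC class II and presentation genes, with 1 lower and 5 not called. Their median log2 fold of 1.27 was 0.30 with a mean of at least 1 CPM, where 3 of 7 were higher. H2-Oa, a chain of a modulator of peptide loading, had 69.4 and 70.6 CPM in Cd11b-high cells, against 19.5 and 12.6 CPM at day 0. H2-DMb1, a chain of the loading factor itself, had 45.0 and 44.9 CPM in Cd11b-high cells, against 19.6 and 19.2 CPM at day 0. H2-Ab1, a chain of a class II molecule, had 4.52 and 5.17 CPM in Cd11b-high cells, against 6.85 and 6.34 CPM at day 0, and did not pass the test. Of 30 interferon-stimulated genes 20 were higher and 2 lower, with a median log2 fold of 1.15. Ddx58, the RNA sensor RIG-I, had 97.5 and 101 CPM in Cd11b-high cells, against 32.2 and 25.7 CPM at day 0. Ifitm6, of a family of antiviral membrane proteins, had 261 reads in Cd11b-high cells and 0 at day 0 (at least 67.2-fold). The lower ones were Stat2 and Bst2, with log2 folds of -0.56 and -0.48, and 1 member was lower without day 0 replicate A or without either Cd11b-high replicate.

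Of 44 lysosomal genes 32 were higher and 3 lower, with a median log2 fold of 0.75, and their summed level was 14506 and 14392 CPM in Cd11b-high cells, against 7213 and 6868 CPM at day 0. Man2b1, lysosomal alpha-mannosidase, had 1479 and 1498 CPM in Cd11b-high cells, against 232 and 220.5 CPM at day 0. Psap, the precursor of the saposins, had 1504 and 1462 CPM in Cd11b-high cells, against 361 and 319 CPM at day 0. Grn, progranulin, had 661 and 684 CPM in Cd11b-high cells, against 125 and 153 CPM at day 0. All 3 were over 4-fold higher (log2 folds 2.72, 2.13 and 2.28). The lower members were the proteases Lgmn and Ctsl and the galactosidase Gla, with log2 folds of -1.09, -0.71 and -0.33; 1 was lower without Cd11b-high replicate B and 5 with library size alone.

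Genes of cell division showed no common fall beside the higher maturation genes. Of 37 mitosis genes 16 were higher and 4 lower, with a median log2 fold of 0.25. Prc1, which bundles the central spindle, had 271 and 253 CPM in Cd11b-high cells, against 103 and 107 CPM at day 0. Cdc25b, a phosphatase that starts mitosis, had 65.3 and 70.6 CPM in Cd11b-high cells, against 22.5 and 20.3 CPM at day 0. Mki67, the proliferation antigen Ki-67, had 1099 and 891 CPM in Cd11b-high cells, against 596 and 506 CPM at day 0. All 3 were higher in both Cd11b-high libraries, while Cdc25c, another phosphatase of that family, was lower (log2 fold -0.63). With library size as the only scaling, the count of lower mitosis genes was 10. Replication genes were split, with 14 of 47 higher and 18 lower and a median log2 fold of -0.06 that came to 0.00 with RLE scaling. Of the MCM helicase, Mcm2, Mcm3, Mcm4, Mcm5 and Mcm6 were higher, with Mcm3 at 434 and 415 CPM in Cd11b-high cells, against 176 and 171 CPM at day 0, and Mcm7 did not pass the test (log2 fold 0.15). Orc1, of the origin recognition complex, had 13.9 and 13.5 CPM in Cd11b-high cells, against 46.2 and 42.4 CPM at day 0. All 4 genes of the GINS helicase complex were lower, with log2 folds of -1.26 (Gins1) to -0.49 (Gins3).

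Regulators of the G1 phase and of cell death were higher more often than lower. Of 20 cell cycle inhibitors and G1 cyclins 11 were higher and 2 lower (1 without Cd11b-high replicate A). Rb1, the retinoblastoma protein, had 158 and 160.4 CPM in Cd11b-high cells, against 37.2 and 33.0 CPM at day 0. Ccnd3, cyclin D3, had 426 and 444 CPM in Cd11b-high cells, against 174 and 147 CPM at day 0. Btg2, an antiproliferative gene, had 108 and 121 CPM in Cd11b-high cells, against 37.3 and 38.9 CPM at day 0. Cdkn1a, the inhibitor p21, had a log2 fold of 1.23, Cdkn2c, the inhibitor p18, of 1.56, and Cdkn1b, the inhibitor p27, of 0.17, which did not pass the test. Cdk4, a kinase of G1, had 256 and 237 CPM in Cd11b-high cells, against 461 and 527 CPM at day 0. Of 14 BCL2 family genes 8 were higher and 2 lower (1 without Cd11b-high replicate B), and these included both killers and protectors. Pmaip1 and Bak1, which promote death, had log2 folds of 1.30 and 1.16. Bcl2l1 and Mcl1, which prevent it, had 1.05 and 0.65, and Bcl2 itself -0.62.

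Most ribosomal protein and ribosome biogenesis genes were lower. Of 45 ribosome biogenesis genes 27 were lower and 5 higher, with a median log2 fold of -0.59, and 3 were higher without day 0 replicate A, without either Cd11b-high replicate or with library size alone. Polr1b, a subunit of RNA polymerase I, had 26.7 and 27.7 CPM in Cd11b-high cells, against 102 and 88.4 CPM at day 0. Gnl3, nucleostemin, had 51.7 and 50.2 CPM in Cd11b-high cells, against 151 and 160.4 CPM at day 0. Wdr12, a processing factor of the large subunit, had 56.3 and 54.4 CPM in Cd11b-high cells, against 149 and 155 CPM at day 0. Both day 0 libraries were the higher at all 3. Members that rose included Ncl, nucleolin, and Ddx21, a nucleolar helicase (log2 folds 0.90 and 0.92). Of 76 cytosolic ribosomal protein genes 74 were lower and 0 higher, with a median log2 fold of -1.29. Rps18 had 90.9 and 84.1 CPM in Cd11b-high cells, against 339.6 and 364 CPM at day 0. Rpl10a had 38.7 and 49.5 CPM in Cd11b-high cells, against 168 and 166 CPM at day 0. Ribosomal protein genes took 0.951% and 0.916% of all counts in Cd11b-high cells, against 2.41% and 2.44% at day 0. Processed pseudogenes of ribosomal protein genes can take reads from them.

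Gene length moved with the direction of change and touches these lists. Among genes of up to 500 bases 58.1% were lower and 6.20% higher (468 genes), and among genes over 5000 bases 19.6% were lower and 47.4% higher (2101 genes). The median log2 fold was -1.14 in the shortest band and 0.37 in the longest. Genes of up to 1000 bases held 5.21% and 5.13% of all counts in Cd11b-high cells, against 8.76% and 8.62% at day 0. Ribosomal protein genes had a median length of 693.5 bases and a median log2 fold of -1.29. The range of 450.5 to 1377.5 bases, which holds most of them, held 2351 other genes with a median log2 fold of -0.48. Those others were longer, with a median of 978 bases, so the 2 medians are not compared at equal length. With a smooth trend in length removed from the fit, 69 of the 76 were still lower and 0 higher (median -0.67), and ribosome biogenesis genes stood at 32 lower and 3 higher (median -0.57). The part of library preparation or RNA quality in this trend was not tested.

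**Figure D3:**
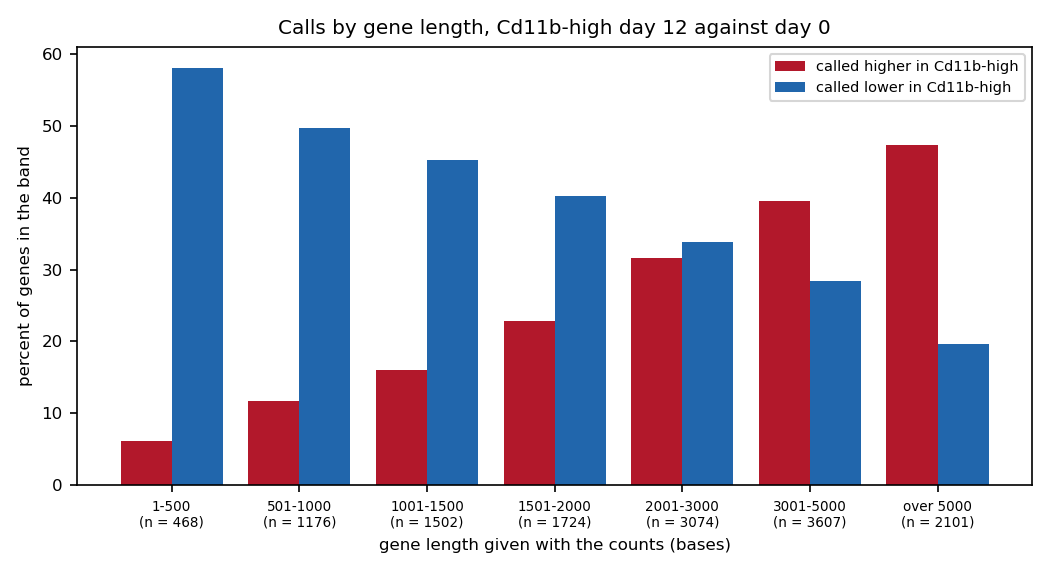
Percent of genes called higher (red) or lower (blue) in Cd11b-high cells against day 0, by bands of the gene length deposited with the counts, in bases; n is the number of genes per band. The share called lower goes down band by band, 58.1% in the shortest and 19.6% in the longest, and the share called higher goes up.

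Respiratory chain genes separated by genome and by length. Of 15 mitochondrially encoded genes 14 were lower and 0 higher, with a median log2 fold of -1.53. With the length trend removed, 12 were still lower (median -1.12). Not all of the 15 are respiratory chain genes, as they include the ribosomal RNA gene mt-Rnr1 (log2 fold -2.80). COX1, a core subunit of cytochrome oxidase, had 8359.9 and 9235 CPM in Cd11b-high cells, against 29858 and 25276 CPM at day 0. ND1, a subunit of complex I, had 2521 and 2743 CPM in Cd11b-high cells, against 8197 and 7041 CPM at day 0. Mitochondrial genes made up 2.04% and 2.29% of counts in Cd11b-high cells, against 7.36% and 6.35% at day 0; in the other 12 libraries of the series the share was 2.01% to 3.59%, so the day 0 libraries stood apart. Of 48 nuclear genes of the chain 33 were lower and 1 higher, with a median log2 fold of -0.61. Uqcrq, a small subunit of complex III, had 61.9 and 59.2 CPM in Cd11b-high cells, against 216 and 185 CPM at day 0. Sdha, the flavoprotein of complex II and a longer gene, had 181 and 178 CPM in Cd11b-high cells, against 105 and 94.6 CPM at day 0. Once the length trend was removed, the nuclear genes stood at 15 lower and 8 higher with a median of -0.06, so most of these calls did not outlast that correction.

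Metabolic genes changed singly. Of 30 genes of glycolysis and the pentose phosphate pathway 16 were higher and 8 lower, with a median log2 fold of 0.41. Slc2a3, the glucose transporter GLUT3, had 73.9 and 73.0 CPM in Cd11b-high cells, against 6.25 and 6.79 CPM at day 0. Hk3, the hexokinase of myeloid cells, had 39.2 and 40.9 CPM in Cd11b-high cells, against 3.21 and 4.50 CPM at day 0. Tkt, transketolase, had 1109.7 and 1129 CPM in Cd11b-high cells, against 455 and 475 CPM at day 0. Gapdh went the other way (log2 fold -0.95), and the count of lower genes was 5 without Cd11b-high replicate B. Of 24 cholesterol synthesis genes 11 were higher and 6 lower; without day 0 replicate A 5 were higher, without Cd11b-high replicate A 7, and without day 0 replicate B 3 were lower. Srebf2, the regulator of the pathway, had 686 and 685 CPM in Cd11b-high cells, against 261 and 277 CPM at day 0. Of 20 immediate-early and heat-shock genes 6 were higher and 5 lower (3 without day 0 replicate A), with Dusp1, a phosphatase of MAP kinases, at 92.9 and 123 CPM in Cd11b-high cells, against 13.4 and 21.2 CPM at day 0, and the chaperone Hspa1b at 1.48 and 1.32 CPM in Cd11b-high cells, against 4.29 and 5.02 CPM at day 0.

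**Figure D4:**
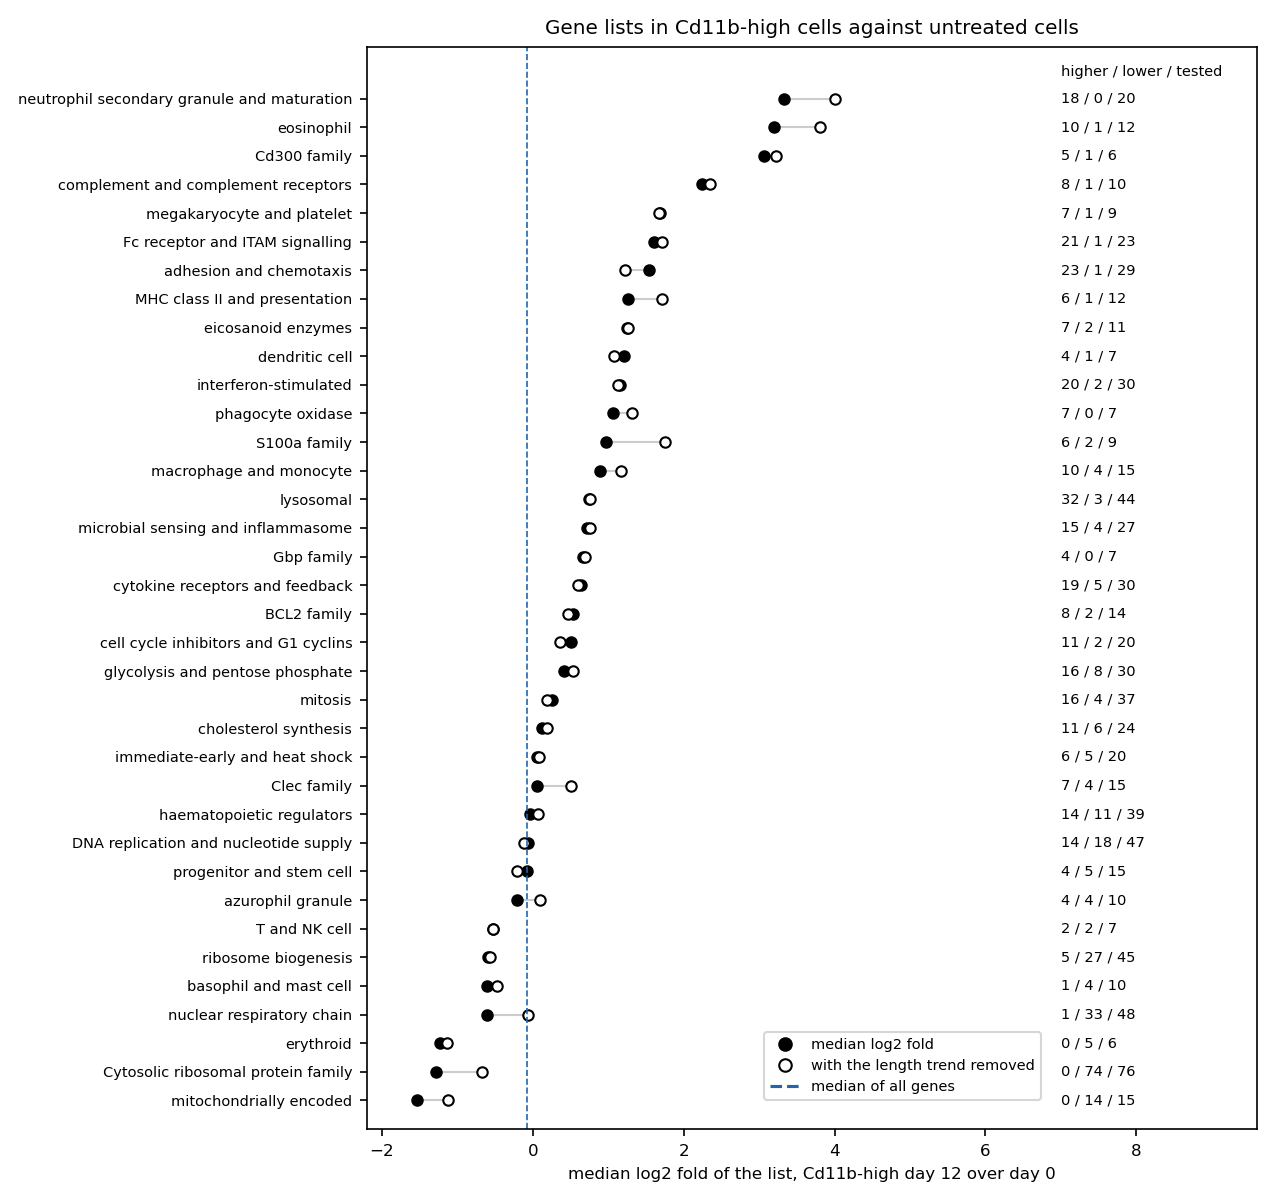
Median log2 fold of Cd11b-high cells over day 0 for each gene list with at least 6 measured members, as tested (filled) and with the trend in gene length removed (open); the dashed line is the median of all genes, and the figures at the right give members called higher, called lower and tested. Neutrophil and eosinophil lists lie at the top, mitochondrially encoded and ribosomal protein genes at the bottom.

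RNAs of the miRNA cluster on the X chromosome were among the largest falls. The hairpin genes Mir363, Mir92-2, Mir19b-2, Mir20b, Mir18b and Mir106a and the long non-coding gene Kis2 lie within 2901 bases (chrX:52741693-52744593, GRCm38, annotated as miRNA and lncRNA genes). This is the relative of the Mir17-92 cluster, a known oncogenic miRNA locus of blood cancers. The mature forms are shown because they share seeds with each other and with the Mir17-92 and Mir106b-25 clusters. Capitals mark the seed, bases 2 to 8, and the sequences are those of RefSeq.
miR-106a-5p: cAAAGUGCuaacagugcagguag
miR-20b-5p: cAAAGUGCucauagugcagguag
miR-18b-5p: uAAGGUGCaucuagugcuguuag
miR-19b-3p: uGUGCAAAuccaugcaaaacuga
miR-92a-3p: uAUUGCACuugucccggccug
miR-363-3p: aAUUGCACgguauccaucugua
The first pair has 1 seed, that of miR-17, miR-20a, miR-93 and miR-106b, and the last pair another, that of miR-25. The miR-18 and miR-19 seeds each recur in the Mir17-92 cluster.

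Kis2 had 0.693 and 0.862 CPM in Cd11b-high cells, against 44.9 and 47.7 CPM at day 0 (log2 fold -5.89, SE 0.27). Mir363 had 0.369 and 0.152 CPM in Cd11b-high cells, against 16.9 and 15.1 CPM at day 0 (log2 fold -5.88, SE 0.39). Both day 0 libraries were far above both Cd11b-high libraries along the whole cluster. Mir92-2 had 3 reads in Cd11b-high cells and 298 at day 0, which made day 0 higher by a ratio of 129 (interval 43.6 to 627). Mir18b and Mir19b-2 likewise had 3 reads each in Cd11b-high cells, against 145 and 136 at day 0. Mir20b and Mir106a had 0 reads in Cd11b-high cells, at least 60.0-fold and 29.8-fold lower than the 139 and 69 reads of day 0. Mir17hg (chr14:115044390-115046728), named as the host gene of the Mir17-92 cluster, had 1.66 and 2.13 CPM in Cd11b-high cells, against 16.6 and 21.2 CPM at day 0. It was lower by the edgeR test (log2 fold -3.32, SE 0.29). Of the mature miRNAs of that cluster, only those of Mir92-1 lie within this annotated span. Those of Mir17, Mir18, Mir19a, Mir20a and Mir19b-1 lie before its start, so the value does not cover most of the cluster. The hairpins Mir25, Mir93 and Mir106b, which lie inside Mcm7 (chr5:138164583-138172111), fell by 1.63, 1.29 and 1.37 on the log2 scale, at about 1 CPM or less in Cd11b-high cells. Mcm7 itself had 359.5 and 360.5 CPM in Cd11b-high cells, against 319 and 331 CPM at day 0 and did not pass the test (edgeR adjusted p = 0.232).

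These reads come from libraries of long RNA, so they measure the transcripts that cross the hairpins and not the mature miRNAs, and the strand of counting is not given. Of 40 miRNA hairpin genes tested, all of 64 to 120 bases, 17 were lower and 0 higher, with a median log2 fold of -0.94, beside a median of -1.14 for all genes of up to 500 bases. Kis2 itself is 2031 bases long.

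**Figure D5:**
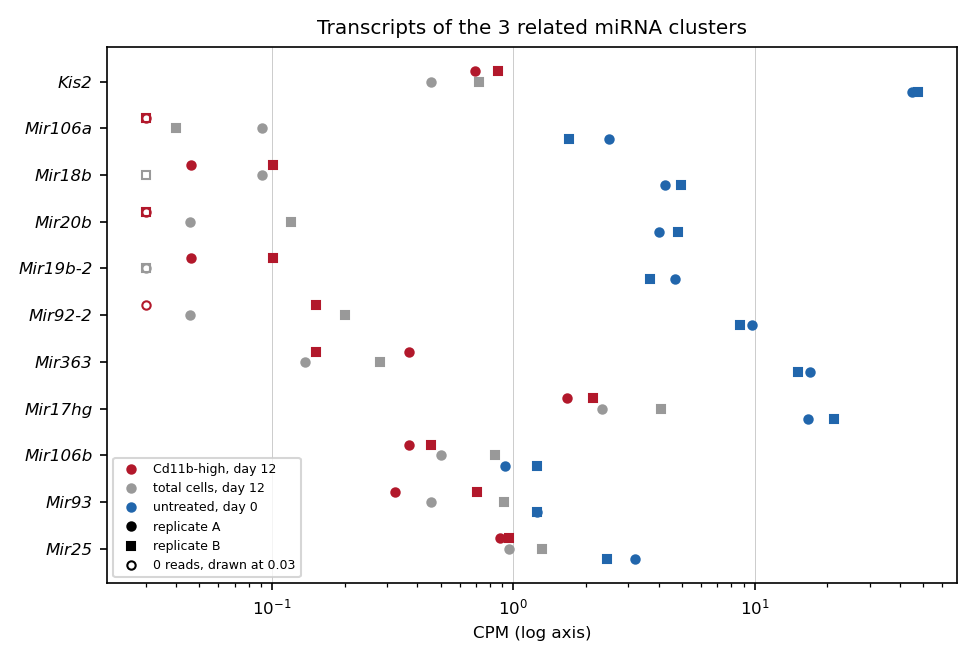
CPM per library on a log axis for Kis2 and the hairpins of its cluster, for Mir17hg, and for the 3 hairpins inside Mcm7; colours and symbols are as in the plot of the largest changes. Kis2 and its hairpins are above 1 CPM in both untreated libraries and below 1 CPM in both Cd11b-high libraries.

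The sorted cells were set against the whole culture of their own day. Between Cd11b-high and total cells of day 12, 2 of 13652 genes were called (0.0146%), 0 higher and 2 lower; at an unadjusted p under 0.05 there were 309 (2.26%), and DESeq2 called 11, all lower. A fit of the 4 compared libraries alone called 313, 155 higher and 158 lower. The fit of all 16 libraries shares its spread across groups, while the noise of the pairs differed. The chi-square per degree of freedom was 2.90 in the total day 12 pair, below the 6.27 of the Cd11b-high pair and 12.3 of the day 0 pair. As day 0 cancels, the comparison with total cells is also the test of whether the changes from day 0 differed. Mcpt8, a basophil protease, had 8.73 and 8.93 CPM in Cd11b-high cells, against 26.8 and 26.0 CPM in total cells of day 12 (log2 fold -1.58, SE 0.14, edgeR adjusted p = 1.75e-04) and 19.9 and 17.6 CPM at day 0. Poln, a DNA polymerase whose span overlaps that of Haus3, had 1.11 and 1.62 CPM in Cd11b-high cells, against 4.51 and 4.76 CPM in total cells (log2 fold -1.77, SE 0.26, edgeR adjusted p = 0.0445) and 15.7 and 13.7 CPM at day 0. Mcpt8 kept its call when any 1 of these 4 libraries was left out, whereas Poln lost its call each time (edgeR adjusted p = 0.2325 to 1). Itgam itself had 884 and 940.4 CPM in the sorted cells, against 719 and 669.5 CPM in total cells. Alox15 had 233 and 237 CPM in Cd11b-high cells, against 313 and 314 CPM in total cells, and did not pass the test of this difference.

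By list, 17 of 20 neutrophil genes had a fitted level above that of total day 12 cells, with a median log2 difference of 0.34, and 0 of them were called. Only 1 of 12 eosinophil genes and 1 of 10 basophil and mast cell genes had a fitted level above total cells, with medians of -0.30 and -0.68. The median log2 difference of all genes was 0.003. Of the eosinophil genes 0 were called, and of the basophil and mast cell genes only Mcpt8 was. Members of a list come from the same libraries, so these counts are not replicates and do not show an effect of the gate on a lineage. The eosinophil list summed to 7198 and 7659 CPM in Cd11b-high cells, against 8734 and 9734 CPM in total cells, and the basophil and mast cell list to 1762 and 1598 CPM, against 2226 and 2235 CPM. Of the other lists with at least 6 genes, the erythroid one had the largest median difference (-0.59).

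Per kilobase of gene, the mitochondrial COX1 stood first in both groups, and the nuclear genes with names among the 8 highest of the Cd11b-high cells were Prg2, Olfm4 and H2-K1. Prg2 reached 3155 RPKM in Cd11b-high cells, against 181 RPKM at day 0. Olfm4 reached 2766 RPKM in Cd11b-high cells, against 171 RPKM at day 0. H2-K1, a classical MHC class I heavy chain, reached 1770.3 RPKM in Cd11b-high cells, against 462 RPKM at day 0. At day 0 the 8 highest were 7 mitochondrially encoded genes and 1 gene that the reference table does not name.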

How the data were processed

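The deposited files hold read counts per Entrez gene for each of 16 libraries, with gene lengths, per the file headers. Sorted cell pellets gave RNA through a column kit and were sequenced on a NextSeq500, per the labels' protocols. featureCounts, edgeR, limma and mm10 are named in the submitters' processing notes; the aligner and the use of strand are not given in the sources used here. Symbols, positions and sequences came from RefSeq tables of GRCm38.p6, the same assembly as mm10, and 13216 of 13652 genes had a symbol.

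Counts were fitted with edgeR 4.0.16 (limma 3.58.1, R 4.3.3), with TMM factors, 1 mean for each of the 8 groups of 2 libraries, robust quasi-likelihood dispersions and 8 residual degrees of freedom. The common biological coefficient of variation was 10.91%. filterByExpr removed 0 genes. Tests were two-sided, with p-values adjusted over all genes. An SE is the log2 fold over the square root of F. Total counts of the 16 libraries ran from 12962801 to 26509803. A gene with 0 reads in a group is set against a floor of 3 reads over that group, and a gene with 1 to 3 reads has an exact 95% binomial counting interval; both cover counting error only.

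The comparison, the 32 gene lists and 10 symbol families, of which 9 had measured members, were chosen with earlier results of these data known, so no list adds independent support. Named were Spi1, Itgam and Lcn2, the 12 largest rises and falls among called genes of at least 10 CPM that do not overlap between groups, predicted and RIKEN genes left out, up to 3 members of each list by adjusted p and members that go against their list, the 8 highest by RPKM in each group, and genes called against total day 12 cells. Members named beyond this to complete a list were chosen after their values were seen, and some genes that the rule gives are not reported here. Spans of Itgb2l, Cd300lf, Cd34, Il1r2, H2-Oa, Hvcn1, H2-DMa, Prc1, Orc1, Rb1 and Bak1, among others, overlap those of other tested genes. Their reads cannot be told apart without strand.

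The alternatives were RLE factors, library size alone, no filter, a mean of at least 1 CPM, DESeq2 1.42.0, limma-voom, the 4 compared libraries alone, a replicate block, a test against a 2-fold change, mitochondrial genes left out, and each library left out. Removal of a loess trend of the fold with gene length was added after seeing the data. Counts of 13652 genes were also simulated with the same mean in every group. Changes were set in Cd11b-high cells at 67, 67 and 66 genes of at least 1 CPM, in both directions. The share called against day 0 was 44.8% at 1.5-fold, 89.6% at 2-fold and 100.0% at 4-fold, and 7 of 163 calls were false. The real contrast had far more changed genes, a length trend and genes near 0 reads, so these rates do not carry over to it.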

Additional observations from a re-analysis of the deposited data

Results flagged for a closer look

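The changes from day 0 differed between Cd11b-high and total cells of day 12 at 2 genes in the fit of all 16 libraries, and at 313 when only the 4 compared libraries were fitted. Mcpt8 was lower in Cd11b-high than in total cells by a log2 difference of -1.58 (SE 0.14, 8.73 and 8.93 CPM against 26.8 and 26.0 CPM, edgeR adjusted p = 1.75e-04). Poln was lower by -1.77 (SE 0.26, 1.11 and 1.62 CPM against 4.51 and 4.76 CPM, edgeR adjusted p = 0.0445). At each gene both Cd11b-high libraries lay below both total libraries. Poln lost its call when any 1 of these 4 libraries was left out, with limma-voom, with library size alone or with a mean of at least 1 CPM (adjusted p = 0.0565 to 1), while Mcpt8 was called in each of these fits.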

How the results depend on the processing

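Against day 0, 8907 genes were called, and the count stayed between 7484 and 9571 under every alternative but one: a test against a 2-fold change called 2054, 1035 higher and 1019 lower. Leaving out a library gave 7484 to 7872. Library size alone moved the median of all genes by -0.15 (log2) and gave 3501 higher and 5584 lower. Against total day 12 cells the 2 calls became 1 with library size alone, with a mean of at least 1 CPM, with limma-voom and without any 1 library (each 1 call, lower), 11 with DESeq2 (11 lower), and 313 (155 higher, 158 lower) when only the 4 compared libraries were fitted. A replicate block gave 9050 calls against day 0 and 3 against total cells; the A minus B differences of Cd11b-high and day 0 libraries correlated at -0.08 over 12138 genes, and the letters A and B are not known to pair cultures.

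Of the fits for named genes, 0 changed sign; 1909 kept the call and 18 lost it, 10 of these at Cd79a, which is not described. With the length trend removed, 187 of the 8907 calls changed sign, 16 of them as opposite calls. List medians changed sign in these cases. For haematopoietic regulators the median was 0.0162 with RLE factors, 0.0162 with DESeq2, 0.0641 without the length trend, and -0.13 to 0.21 with a library left out. Azurophil genes stood at 0.10 without the length trend. With a mean of at least 1 CPM, T and NK cell genes stood at 0.31, dendritic cell genes at -0.0778 and Slfn genes at -0.71 (-0.69 with the 4 libraries alone). Replication genes stood at 0.000747 with RLE factors and 0.000686 with DESeq2. Library size alone gave -0.0379 for cholesterol synthesis, -0.0943 for immediate-early and heat-shock and -0.11 for Clec genes. With a library left out, cholesterol synthesis ran from -0.0345 to 0.28 and immediate-early genes from -0.0437 to 0.18. The cause was not tested. Genes with few reads, such as the hairpins and genes near 0 at day 0, are limited by depth.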
